A study of Homo sapiens with 2 samples.

Results

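The genes described here are 10 ETS transcription factors with a known part in prostate cancer or prostate epithelium: ERG, ETV1, ETV4, ETV5, ETV6, ETS2, SPDEF, EHF, ELF3 and ELK4. They were taken by gene symbol from the deposited expression table, and all 10 were found among its 25343 rows. The study compared 2 libraries of C4-2B, a castration-resistant human prostate cancer line that descends from LNCaP through C4-2. Con is the enzalutamide-sensitive line, grown with DMSO (n = 1 library, 21024484 reads in genes), and ENZR is the enzalutamide-resistant line, grown with 20 µM enzalutamide, an antiandrogen (n = 1 library, 23479051 reads). The suffix shC stands in the titles of both libraries and is left unexplained by the labels. Long-term drug exposure and resistance cannot be told apart here, since resistant cells were kept in the drug and sensitive cells were not. With 1 library a condition no value has a replicate, no test of the conditions was possible and no p-value is given.

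ETS factors share a DNA-binding domain that recognises a GGAA core, and they differ in the surfaces that bring activators or repressors to it. In prostate tumours, chromosome rearrangements place ERG, ETV1, ETV4 or ETV5 under the control of androgen-regulated genes such as TMPRSS2 and SLC45A3. EHF, SPDEF and ELF3 belong instead to the normal repertoire of epithelial cells, where SPDEF and EHF are typical of secretory epithelium. Many ETS proteins are switched by phosphorylation through the RAS-ERK pathway.

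Levels are given as CPM, which is the number of reads assigned to a gene out of every 1000000 in the library, after the authors had applied TMM scaling. Ratios are plain CPM ratios, and the range in parentheses after a ratio is an exact 95% interval from the read counts (Clopper-Pearson), which covers counting error only. A gene was called at least 2-fold different from its log2 ratio after adding 1 CPM to each value, among the 13803 genes whose mean of both libraries was at least 1 CPM, called the genes kept below. In that set 6.69% of genes passed 2-fold as higher in ENZR and 4.64% as lower, and for 71.2% the counting interval did not include 1. Undoing the TMM scaling took the median log2 ratio over the genes kept from -0.01 to 0.10, so the direction of ratios close to 1 rests on the scaling.

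Of the 10 genes, ETV4 and ELF3 passed 2-fold as higher in ENZR and SPDEF as lower. ETV6, ETS2, EHF and ELK4 lay in between, and ERG, ETV1 and ETV5 did not reach a mean of 1 CPM. The counting interval of the ratio did not include 1 for 8 of the 10, namely the 7 that were kept and ETV5, which was not. Beside the 7 kept, the share over all genes kept was 71.2%. Of the 18 other ETS genes, kept or not, the interval did not include 1 for 9. The 18 include genes with hardly any reads, such as ETV3L with 0 in both libraries. Among the 13 of them kept, the interval included 1 only for ETV3, ERF, ELK1, SPIB and SPIC. For the counts that take in genes not kept, no share over all rows was computed. Among the 10, the 3 genes with the most reads, EHF, ELK4 and SPDEF, were all lower in ENZR. The members with fewer reads were higher, apart from ERG and ETV1, which had too few reads for a ratio. The median log2 ratio over all 10, none left out, was 0.32, against 0 over all 25343 rows, of which 6040 had 0 reads in both libraries. Over the genes kept the median was 0.58 for the 7 members and -0.01 for all 13803. The 7 include ETV4, which passed the filter on low values only through its ENZR level, so this median carries that selection.

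**Figure D1:**
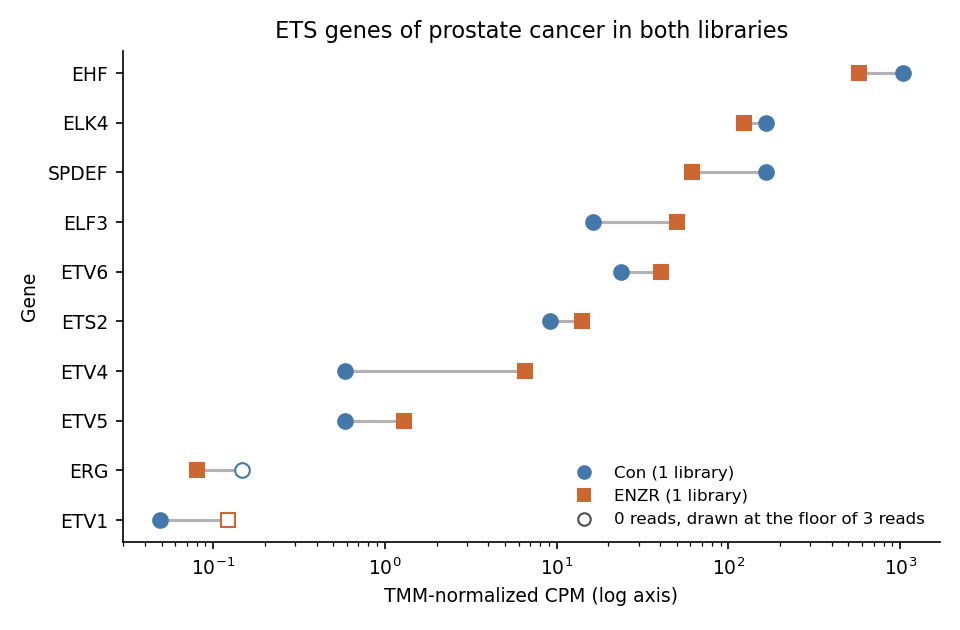
CPM of the 10 ETS genes in the Con library (circles) and the ENZR library (squares) on a log axis; open symbols stand for 0 reads and are drawn at the level of 3 reads. EHF, ELK4 and SPDEF are lower in ENZR, and ELF3, ETV6, ETS2, ETV4 and ETV5 are higher.

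Among the genes that tumours rearrange, ERG and ETV1 were at the limit of detection. ERG, a factor of endothelial and blood-forming cells that the TMPRSS2 fusion turns on in many prostate tumours, had 0 reads in Con and 2 reads in ENZR. A count of 0 in Con allows a level of up to 0.147 CPM. ETV1, the first of the PEA3 group, had 1 read in Con and 0 in ENZR, and the count of 0 allows up to 0.121 CPM. No fold is given for either, since both libraries were at or under 3 reads. LNCaP, the ancestor of C4-2B, is known for a rearrangement that sets ETV1 beside MIPOL1 and for high ETV1 levels, and neither of these libraries showed ETV1 above 1 read. The tools behind the table are named without their roles, and the annotation is not stated. The ETV1 value is therefore a count in this table and may not be the level of a rearranged transcript. MIPOL1 itself stood at 22.4 CPM in Con against 18.7 CPM in ENZR, a ratio of 0.834 (0.732 to 0.952).

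ETV4, a PEA3 factor linked to cell migration and to RAS-ERK signalling, rested on 12 reads in Con (0.588 CPM) against 162 in ENZR (6.55 CPM). The ratio of 11.1 (6.21 to 22.0) was the farthest from 1 among the 10, and among all genes kept 1.43% had a log2 ratio as high or higher, as had 4.02% of those within 2-fold of its mean CPM. ETV4 passed the filter on low values only through its ENZR level, so its place among the genes kept carries that selection. ETV5, the third PEA3 factor, had 12 reads in Con (0.588 CPM) against 32 in ENZR (1.29 CPM), a ratio of 2.20 (1.10 to 4.69). On the log2 scale with 1 CPM added, ETV5 differed by 0.53 and did not reach 2-fold. ETV4 and ETV5 had the same read count in Con, and in ENZR there were 5.06 reads of ETV4 per read of ETV5, with a conditional maximum likelihood estimate of the change of 5.01-fold (exact conditional 95% interval 1.88 to 13.5). The PEA3 genes resemble each other in their DNA-binding domain, so short reads from that stretch may be shared out between them.

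The epithelial factors did not move as one. EHF, an epithelial factor with a restraining role in prostate tumours, stood at 1033 CPM in Con against 577 CPM in ENZR, 1.79-fold lower (1.75 to 1.83). In bulk RNA, fewer cells with the transcript and less transcript per cell cannot be told apart, here and below. SPDEF, the prostate-derived ETS factor of secretory luminal cells, stood at 166 CPM in Con against 61.4 CPM in ENZR, 2.71-fold lower (2.55 to 2.88). Of all genes kept, 2.32% had a log2 ratio as low or lower. ELF3, an epithelium-specific factor that inflammatory signals are known to induce, went the other way, with 16.2 CPM in Con against 50.3 CPM in ENZR, 3.11-fold higher (2.76 to 3.53). Of all genes kept, 3.22% had a log2 ratio as high or higher. Set against each other within a library, which takes out the library scaling, there were 10.3 reads of SPDEF per read of ELF3 in Con (3390 and 330 reads) and 1.22 in ENZR (1518 and 1245). That ratio was 8.42-fold lower in ENZR (exact conditional 95% interval 7.34 to 9.68). SPDEF was also lower relative to EHF, by 1.51-fold (1.42 to 1.61). The pairs of genes here and above were not planned, and SPDEF and ELF3 lay near opposite ends of the ratios of the 10. The intervals do not cover that choice.

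The remaining genes differed by less. ETV6, a repressor of the ETS family known from leukaemia fusions, stood at 23.7 CPM in Con against 40.4 CPM in ENZR, 1.71-fold higher (1.53 to 1.91). ETS2, a target of ERK phosphorylation that lies between ERG and TMPRSS2 on its chromosome, stood at 9.11 CPM and 14.1 CPM, 1.55-fold higher (1.29 to 1.86). ELK4, which binds DNA with serum response factor, stood at 165 CPM in Con against 124 CPM in ENZR, 1.33-fold lower (1.27 to 1.40). The order from highest to lowest ratio was thus ETV4, ELF3, ETV5, ETV6, ETS2, ELK4, EHF and SPDEF. The interval of ETV5 overlapped those of ELF3, ETV6 and ETS2, and the intervals of ETV6 and ETS2 overlapped each other, so neighbours in that stretch are not separated by counting error alone. Those of ELK4, EHF and SPDEF did not overlap.

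Promoters were matched for 8 of the 10 genes in RefSeq's table (GRCh38.p14), ETV4 and ETV5 not being among them, and 4 are shown here from 250 bases before to 50 after the first listed start. They are the epithelial factors whose ratios are given above and ELK4, and capitals mark the ETS core GGAA on either strand, the letters that the DNA-binding domain of this family recognises. The files were made on hg19, and these coordinates are GRCh38.

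SPDEF (chr6:34556280-34556579, minus strand): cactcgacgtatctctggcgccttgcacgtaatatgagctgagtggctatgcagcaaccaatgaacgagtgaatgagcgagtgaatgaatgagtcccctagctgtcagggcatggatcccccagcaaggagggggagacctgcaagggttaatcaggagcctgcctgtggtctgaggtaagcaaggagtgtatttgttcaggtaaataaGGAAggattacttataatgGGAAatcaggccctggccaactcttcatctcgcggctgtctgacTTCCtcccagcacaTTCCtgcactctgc

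EHF (chr11:34624007-34624306, plus strand): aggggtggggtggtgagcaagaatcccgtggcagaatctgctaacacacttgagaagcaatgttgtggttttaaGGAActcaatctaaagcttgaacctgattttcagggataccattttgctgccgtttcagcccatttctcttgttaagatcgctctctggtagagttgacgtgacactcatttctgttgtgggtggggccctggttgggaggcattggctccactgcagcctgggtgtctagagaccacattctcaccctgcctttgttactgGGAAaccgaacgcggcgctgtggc

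ELF3 (chr1:202010337-202010636, plus strand): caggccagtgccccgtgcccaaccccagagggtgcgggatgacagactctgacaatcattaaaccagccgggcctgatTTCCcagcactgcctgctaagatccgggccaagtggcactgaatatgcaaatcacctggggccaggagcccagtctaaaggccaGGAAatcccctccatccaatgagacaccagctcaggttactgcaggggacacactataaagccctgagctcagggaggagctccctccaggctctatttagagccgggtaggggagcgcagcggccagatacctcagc

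ELK4 (chr1:205631962-205632261, minus strand): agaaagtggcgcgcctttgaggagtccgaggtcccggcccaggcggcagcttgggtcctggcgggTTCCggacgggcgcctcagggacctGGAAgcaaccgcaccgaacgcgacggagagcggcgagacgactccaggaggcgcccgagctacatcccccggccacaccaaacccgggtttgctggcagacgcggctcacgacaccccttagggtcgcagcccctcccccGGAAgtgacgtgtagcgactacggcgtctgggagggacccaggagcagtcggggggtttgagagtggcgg

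The SPDEF promoter held 4 GGAA cores, EHF and ELF3 held 2 each and ELK4 held 3, where the median of 35116 promoters of the same length was 3 and 95.5% held at least 1. In ELK4, 2 of the cores lay in the longer motif CCGGAA (either strand, overlapping GGAA), which 17.2% of promoters hold and which none of the other 3 sequences held. A match describes letters only and is no evidence of binding.

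Of the 18 other genes of the ETS family 13 were kept and could be called. Among these, 0 passed 2-fold as higher in ENZR and 2 as lower, ELF5 and FEV, beside 6.69% and 4.64% of all genes kept. ELF5, an epithelial factor known for its role in the mammary gland, stood at 21.8 CPM in Con against 3.84 CPM in ENZR, 5.67-fold lower (4.54 to 7.16). FEV, the factor of serotonin neurons also called PET1, had a single read in ENZR beside 69 in Con (3.38 CPM), 83.6-fold lower with a wide counting interval of 14.5 to 3349. It passed the filter on low values only through its Con level, so its call carries that selection. ETV2, a factor of early blood vessel formation, had 49 and 23 reads, 2.58-fold lower in ENZR (1.54 to 4.44), and did not reach 2-fold with 1 CPM added, but did with 0.5 CPM. It too passed the filter only through its Con level. ELF4, which acts in lymphocytes, stood at 15.8 CPM and 30.5 CPM, 1.93-fold higher (1.69 to 2.20), and reached 2-fold only with the TMM scaling undone.

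Within the ternary complex factors, which act with serum response factor, ELK3 was 1.56-fold higher (1.28 to 1.90), from 7.64 CPM to 11.9 CPM. ELK1 stood at 68.2 CPM and 65.6 CPM, and its ratio of 0.962 became 1.04 with the TMM scaling undone. The repressors ERF (31.8 CPM and 33.1 CPM) and ETV3 (15.5 CPM and 17.5 CPM) had counting intervals that included 1. GABPA, the factor of nuclear genes for mitochondria, was 1.38-fold lower (1.26 to 1.51), ELF2 1.58-fold lower (1.42 to 1.77) and ELF1 1.28-fold lower (1.13 to 1.44). SPIB stood at 2.69 CPM and 3.52 CPM and SPIC at 1.27 CPM and 0.971 CPM, both with intervals that included 1. The blood and vessel factors SPI1 and FLI1 had at most 5 reads in either library. ETS1, with 8 and 19 reads, and ETV7, with 5 and 24, were also under a mean of 1 CPM, and ETV3L had 0 reads in both.

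**Figure D2:**
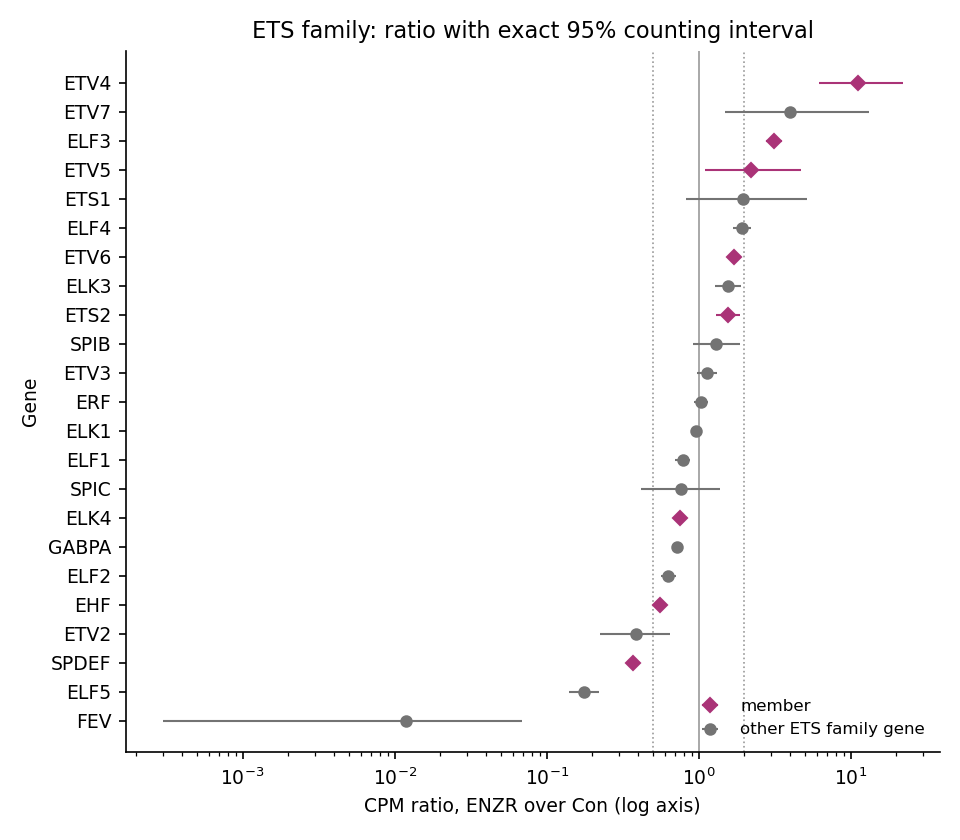
CPM ratio of ENZR over Con on a log axis for ETS genes with at least 10 reads in all and a read in both libraries; bars are exact 95% counting intervals, the solid line is 1 and dotted lines are 2-fold. Without the added 1 CPM, ETV4 (11.1), ETV7, ELF3 (3.11) and ETV5 (2.20) lie above the upper 2-fold line, and ETV2, SPDEF, ELF5 and FEV lie under the lower one.

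EHF dominated the ETS reads of both libraries. Its reads were 60.6% of all reads of the 28 ETS genes in Con (exact 95% interval 60.1 to 61.1) and 51.1% in ENZR (50.5 to 51.7). Since longer transcripts give more reads, levels of different genes were also set side by side per kilobase of transcript, with GENCODE v29 lengths, which are not the authors' annotation. By the median length of a gene's coding transcripts EHF stood at 1121 CPM per kilobase in Con and 626 in ENZR, and by the longest transcript at 328 and 183. It was first of the 28 genes by either length and in both libraries. SPDEF was second in Con by either length, at 88.3 CPM per kilobase by the median length, and in ENZR it had rank 4 by the median length, at 32.6, and rank 2 by the longest. Below these the order changed with the length used: in Con ETV6 had rank 4 by the median length and rank 10 by the longest.

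**Figure D3:**
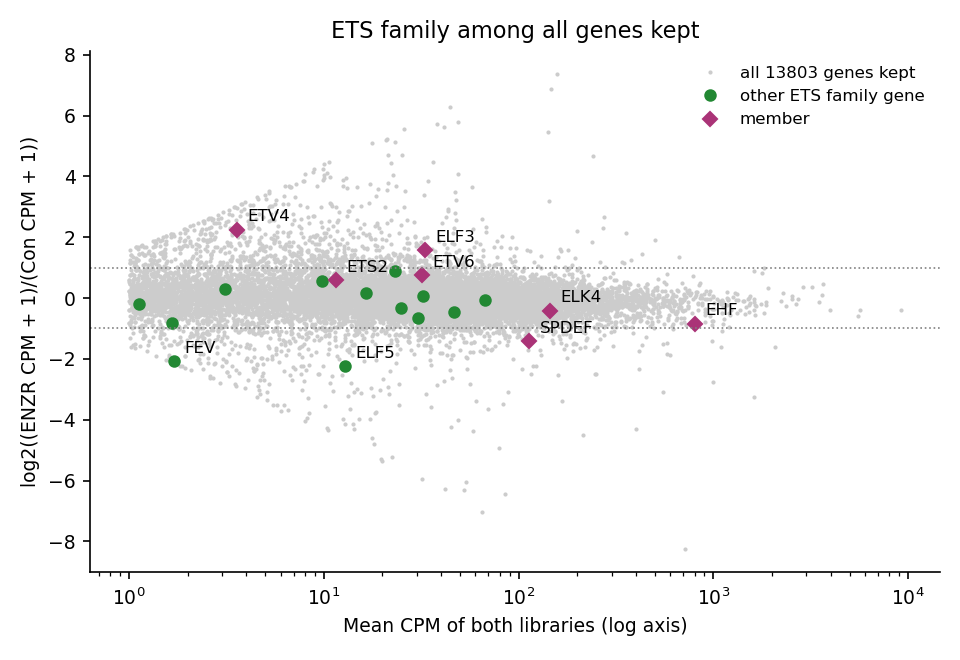
Log2 ratio of ENZR over Con, with 1 CPM added, against the mean CPM of both libraries for the 13803 genes kept (grey), with the ETS genes marked; dotted lines are 2-fold. ETV4 and ELF3 lie above the upper line, SPDEF, ELF5 and FEV below the lower, and EHF has the highest mean CPM of the family.

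Some members have neighbours of interest on the chromosome, so the 3 nearest genes on each side that were kept or are among the 10 were listed by RefSeq gene order. EHF and ELF5 are next to each other in that order, and both were lower in ENZR. On the other side of EHF, APIP, an enzyme of methionine salvage, was 1.62-fold lower (1.39 to 1.90), while CAT, catalase, beyond ELF5, stood at 125 CPM and 150.2 CPM, with an interval of 1.14 to 1.26. Of the 6 neighbours of EHF only ELF5 was called 2-fold, beside 6.69% of all genes kept called higher and 4.64% lower. SLC45A3, a luminal transporter gene under androgen control, is next to ELK4, and a chimeric transcript that joins these genes is known in prostate cancer. SLC45A3 stood at 97.7 CPM in Con against 28.6 CPM in ENZR, 3.42-fold lower (3.13 to 3.73), beside 1.33-fold for ELK4. The table counts per gene and does not show chimeric reads.

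Around SPDEF, 1 of 6 neighbours was called, beside 6.69% of all genes kept called higher and 4.64% lower. It was the read-through gene RPS10-NUDT3 at 3.38 CPM and 1.09 CPM, which shares sequence with RPS10. The genes directly beside SPDEF, PACSIN1 and C6orf106, had log2 ratios of 0.06 and -0.08, and the other 3, RPS10, SNRPC and UHRF1BP1, of -0.50, -0.67 and -0.61. None of the 6 neighbours of ELF3 was called, with log2 ratios from -0.31 to 0.79, and none of those of ETV4, with log2 ratios from -0.19 to 0.45.

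**Figure D4:**
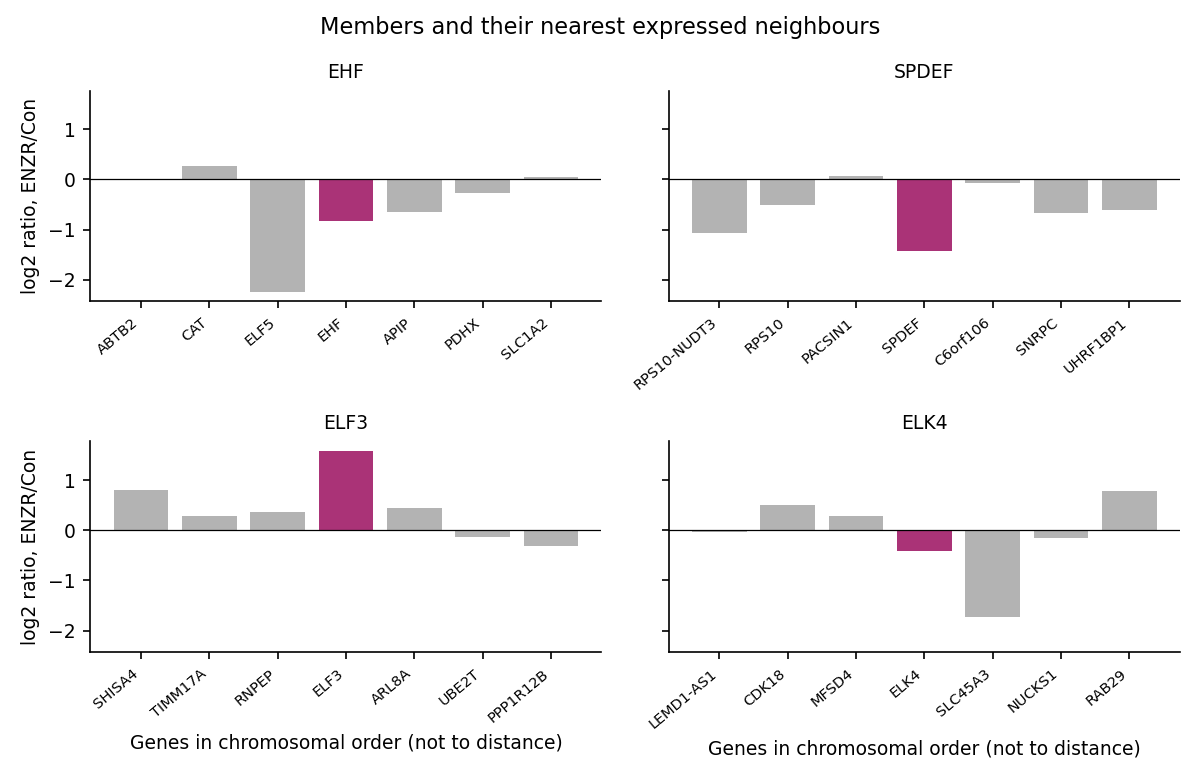
Log2 ratio of ENZR over Con, with 1 CPM added, for EHF, SPDEF, ELF3 and ELK4 (coloured) and the 3 nearest genes kept on each side, in chromosomal order and not to distance. ELF5 beside EHF and SLC45A3 beside ELK4 have lower log2 ratios than the member.

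Here 11 genes were listed as fusion or rearrangement partners of ETS genes. Of these, 2 were at least 2-fold lower and 0 at least 2-fold higher, beside 4.64% and 6.69% of all genes kept. Of the 11, 9 had a log2 ratio under 0, beside 6976 of the 13803 genes kept. The list median of -0.56 was -0.45 with the TMM scaling undone. HERPUD1, at a ratio of 0.924, crossed 1 in that setting. The 2 were SLC45A3 and KLK2, a kallikrein, at 72.2 CPM and 17.4 CPM. NDRG1, a stress and androgen response gene, stood at 56.8 CPM and 29.9 CPM, 1.90-fold lower (1.73 to 2.09), and TMPRSS2 at 115 CPM and 75.6 CPM. TMPRSS2 was thus still well covered in ENZR, with 1869 reads, while ERG had 2.

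The repressors and degradation factors of ETS proteins differed by less than 2-fold. None of the 10 was called, beside 6.69% of all genes kept called higher and 4.64% lower, and their log2 ratios ran from -0.05 to 0.65. The highest was CIC, a repressor of the PEA3 genes, with 45.2 CPM in Con against 71.4 CPM in ENZR, 1.58-fold higher (1.46 to 1.71), beside the higher ETV4. SPOP, the ubiquitin ligase adaptor that targets ERG, stood at 66.5 CPM and 68.5 CPM, with an interval of 0.959 to 1.11.

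Of the binding partners of ETS factors, FOXA1, the pioneer factor of the luminal lineage, had a ratio of 0.963, which was 1.04 with the TMM scaling undone.

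In the RAS-ERK pathway and its feedback, 21 of 24 genes were kept. Of these 1 passed 2-fold as higher in ENZR and 4 as lower, beside 6.69% and 4.64% of all genes kept. The higher gene was DUSP5, an ERK phosphatase, with 48 and 152 reads, a ratio of 2.61 (1.88 to 3.70). The lower ones were PHLDA1 (67.9 CPM and 8.45 CPM), the phosphatase DUSP4 (14.6 CPM and 1.37 CPM), the ERK inhibitor SPRY1 (9.41 CPM and 1.90 CPM) and its relative SPRY2 (2.94 CPM and 0.849 CPM). SPRY2 is named after its values were seen. It passed the filter on low values only through its Con level, so its call carries that selection. DUSP6, an ERK phosphatase often read beside ETV4 and ETV5 as an ERK response gene, had 12 and 25 reads, and its interval of 0.833 to 3.76 included 1. The median over the list was 0.04.

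Genes known to be linked to ERG or ETV1 in tumours were unevenly covered, from ADAMTS1 with 4169 reads in Con to MMP1 with 0 in both libraries. Of 17 genes 6 reached a mean of 1 CPM, beside 13803 of all 25343 rows. Those past 2-fold were 1 higher and 2 lower, beside 6.69% and 4.64% of all genes kept. SOX9, a developmental factor, stood at 6.52 CPM and 21.3 CPM, 3.27-fold higher (2.70 to 3.99). ADAMTS1, a matrix protease, stood at 204 CPM and 55.0 CPM, 3.71-fold lower (3.49 to 3.95), and CRISP3, a secretory protein that is high in tumours with ERG fusions, at 6.47 CPM and 1.62 CPM, a ratio of ENZR over Con of 0.250 (0.171 to 0.359). PLA1A, a phospholipase, had 47 reads in ENZR and 0 in Con, which makes it at least 12.9-fold higher against a floor of 3 reads (the exact counting interval starts at 10.1), and the matrix proteases MMP1, MMP3 and MMP9 had 0 reads in both. These last 4 are named after their values were seen.

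The 23 epithelial identity genes had a median log2 ratio of -0.26. Of them 19 were kept and 2 passed 2-fold, both lower in ENZR, beside 4.64% of all genes kept that were lower and 6.69% higher. The 2 were AGR2, a secretory pathway protein, at 13.1 CPM and 3.40 CPM, 3.87-fold lower (3.01 to 5.00), and CLDN3, a tight junction protein, at 53.1 CPM and 17.0 CPM, 3.13-fold lower (2.79 to 3.51). The 5 luminal prostate markers reported here, KRT8, KRT18, HOXB13, FOLH1 and STEAP2, stood at 268 CPM or more in both libraries, and 3 of them were under a log2 ratio of 0, with a median of -0.34. Of 10 endothelial, leukocyte and fibroblast markers, 3 had 0 reads in both libraries (CDH5, CD3E and COL1A2), and their summed level was 44.6 CPM in Con against 60.4 CPM in ENZR. COL1A1 was 2.45-fold higher (2.18 to 2.76) and VWF 3.06-fold lower (2.32 to 4.08). LUM, a fibroblast marker under a mean of 1 CPM, had 0 reads in Con and 32 in ENZR.

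**Figure D5:**
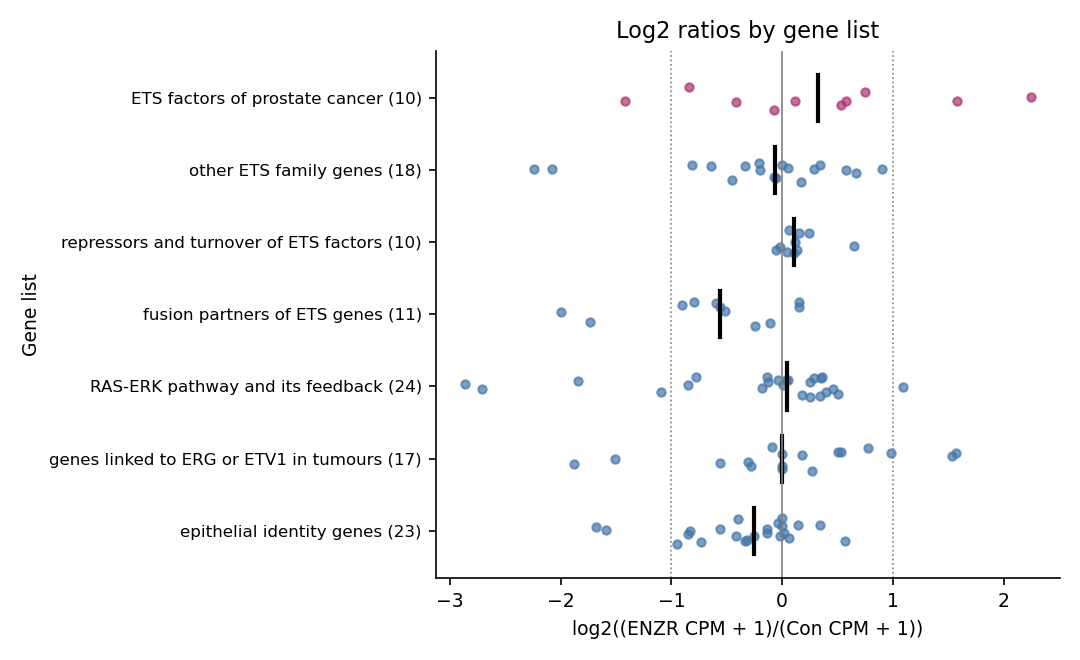
Log2 ratio of ENZR over Con, with 1 CPM added, for every gene of 7 lists (number of genes in parentheses); black bars are medians over the whole list, the grey line is the median over all rows and dotted lines are 2-fold. The fusion partners have the lowest median, -0.56, and the 10 ETS genes reach from -1.42 to 2.25.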

How the data were processed

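RNA was extracted with a column kit and sequenced as single reads, 1 library each of Con and ENZR. The authors deposited 1 signal value per gene and library, described as TMM-normalized CPM. Per the submitters' processing notes, hg19 and the tools RSEM 1.2.15, Bowtie2 2.1.0 and edgeR were used, with no roles given. Whether counting used strand, and on which annotation, is not given in the sources used here, so antisense reads cannot be told apart. The deposited signal was a whole multiple of 1 step in each column (0.0490 CPM in Con, 0.0404 CPM in ENZR): 100% of values lay within 0.01 of a whole read, and reads were recovered so. They may be rounded estimates. A count test needs residual degrees of freedom, which 1 library per group does not leave, so none was run. Thus 0 genes were called by one. Log2 ratios with a pseudocount of 1 CPM, the mean filter of 1 CPM and exact 95% intervals are given instead (Python 3.11.15, scipy 1.17.1). They were tried on simulated reads with counting error only, which cannot show how far replicate cultures would differ. A fold against 0 reads uses 3 reads as the floor, and no fold is given where both libraries have 3 reads or fewer. RefSeq gene order and promoters are from GRCh38.p14, where 24182 of 25343 rows matched by symbol or synonym.

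The 10 genes and the gene lists were chosen with earlier results of these data known. Named are the 10 genes, the other ETS genes whose mean reached 1 CPM, 8 regulators and partners whatever their values (FOXA1, TMPRSS2, SLC45A3, NDRG1, MIPOL1, CIC, DUSP6 and SPOP), up to 4 genes past 2-fold from each further list, and the neighbours. Other genes named, among them the ETS genes under a mean of 1 CPM, HERPUD1 and the markers, were chosen after their values were seen. Some further genes of the rule and lists are not reported here. Other settings changed the pseudocount, the filter and the scaling.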

Additional observations from a re-analysis of the deposited data

How the results depend on the processing

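ETV4, ELF3 and SPDEF were the genes called among the 10 under both other pseudocounts, without the filter and under both other scalings. With a mean of 5 CPM or more ETV4 was no longer tested, and 1 of the 10 genes was called higher. That filter left 577 of all genes at least 2-fold higher and 1 other ETS gene lower, ELF5. With a pseudocount of 5 CPM, 447 of all genes were higher and 371 lower, and 1 other ETS gene was lower, again ELF5. With the TMM scaling undone, 1 other ETS gene was higher, ELF4, and the ratio of ENZR over Con was 0.401 for SPDEF, 0.606 for EHF and 0.813 for ELK4. With upper quartile scaling it was 0.580 for EHF. The cause was not tested. No ratio of the 8 members with 10 or more reads crossed 1 under either scaling. Depth limits ERG, ETV1, ETV5 and the Con level of ETV4, which rest on 12 reads or fewer in Con. No paired analysis was possible because each group holds 1 library.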

Other observations

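Of the 6 neighbours of ETV1, 2 were called 2-fold, both higher in ENZR. Near ETV5, SPDEF, EHF, ELK4 and FEV, 1 of 6 each was called, all lower. None was called near ERG, ETV4, ETV6, ETS2, ELF3 or ELF5. Of all genes kept, 6.69% were called higher and 4.64% lower. ETV1 and ETV5 themselves had few reads, and FEV was itself called lower. Near ETV1, VWDE had 95 reads in ENZR against 4 in Con, 19.6-fold higher (7.41 to 73.4), and ANKMY2 was 2.24-fold higher (1.88 to 2.67), while VWDE passed the filter on low values only through its ENZR level. Near ETV5, IGF2BP2, an RNA-binding protein of the insulin-like growth factor axis, had 79 and 24 reads and was 3.99-fold lower (2.50 to 6.59). Between IGF2BP2 and ETV5 in that gene order lies TRA2B, with a log2 ratio of -0.02. Next to FEV in gene order, WNT10A, a WNT ligand, was 4.54-fold lower (2.74 to 7.86), and stood at 0.809 CPM in ENZR. IGF2BP2 and WNT10A passed the filter on low values only through their Con levels. No explanation of these values was tested.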
